A study of Trametes pubescens and Hermanssonia centrifuga with 16 samples.

Results

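Trametes pubescens is a white-rot basidiomycete. Of its 14451 gene models, 168 met a rule for lowered expression in mycelium grown on spruce at 15 °C. These genes were chosen by their measured values. CPM are counts scaled to a common library total, here after TMM scaling (a trimmed mean that centres the bulk of genes). They had to reach at least 5 in each of the 6 libraries other than the spruce libraries at 15 °C. The lowest of those 6 values had to be at least 1.5 times the higher value of the 2 spruce libraries at 15 °C. The higher spruce value at 25 °C also had to exceed 0.5 times the lowest value on straw. Of 8811 genes at 5 CPM or more in the 6 libraries, 184 met the 1.5-fold limit and 168 (1.91%) met every condition. The files do not pair the JGI identifiers with gene names, so no function is given, and the labelled tissue (mycelium) was not checked against marker genes. No sequence was used here.

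One strain, FBCC735, grew 21 days at 60% moisture on pieces of wheat straw or sticks of Norway spruce, a softwood (2 g dry weight). Each substrate was kept at 15 or 25 °C, which gives 4 groups with 2 libraries each: WS-15c, WS-25c, SP-15c and SP-25c. Every culture was started from homogenised mycelium in low-nitrogen asparagine medium with glycerol, and the malt extract preculture of this fungus stood at 25 °C. The temperature of a library comes from its title and treatment label, because the protocol text names 25 °C alone for the solid cultures. Nothing in the labels says that libraries of a group are separate cultures. The p-values then measure only the spread between these libraries, which may be technical.

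White-rot fungi break down lignin as well as the polysaccharides of plant cell walls. They secrete oxidative enzymes and hydrolases, and import the sugars released. In filamentous fungi, genes that act in one biosynthetic or uptake pathway can lie side by side on a chromosome and be transcribed together, so the place of a gene among its neighbours is of interest even where its function is not known.

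The 8 libraries held 10180387 to 13635999 counts. The TMM factors were 0.821 and 0.899 for cool spruce and 0.897 to 1.13 for the other libraries. The 10 most abundant genes took 7.63% and 5.94% of the counts on cool spruce, against 4.56% to 6.87% elsewhere. The part of this composition in the results below was not tested, other than by scaling to library totals alone. In bulk mycelium, fewer cells that express a gene and less RNA per cell cannot be told apart.

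On cool spruce the 168 genes stood far below their straw level, and warm spruce lay between. Taken as a percentage of a gene's mean over the 4 straw libraries, the median was 25.4% and 26.4% in the 2 cool spruce libraries. It was 66.4% and 71.2% in the warm spruce libraries, and 91.7% to 103% in the straw libraries. The set thus held 3 levels, with straw highest, warm spruce between and cool spruce lowest in the median gene. Together the 168 genes took 0.372% and 0.42% of all counts on cool spruce, 1.09% and 1.46% on warm spruce, and 2.3% to 2.66% on straw. The mean of the other 6 libraries was 3.45 times the cool spruce mean in the median gene, with a range of 1.8 to 39.0 times. These values describe what the rule chose and carry no test.

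**Figure D1:**
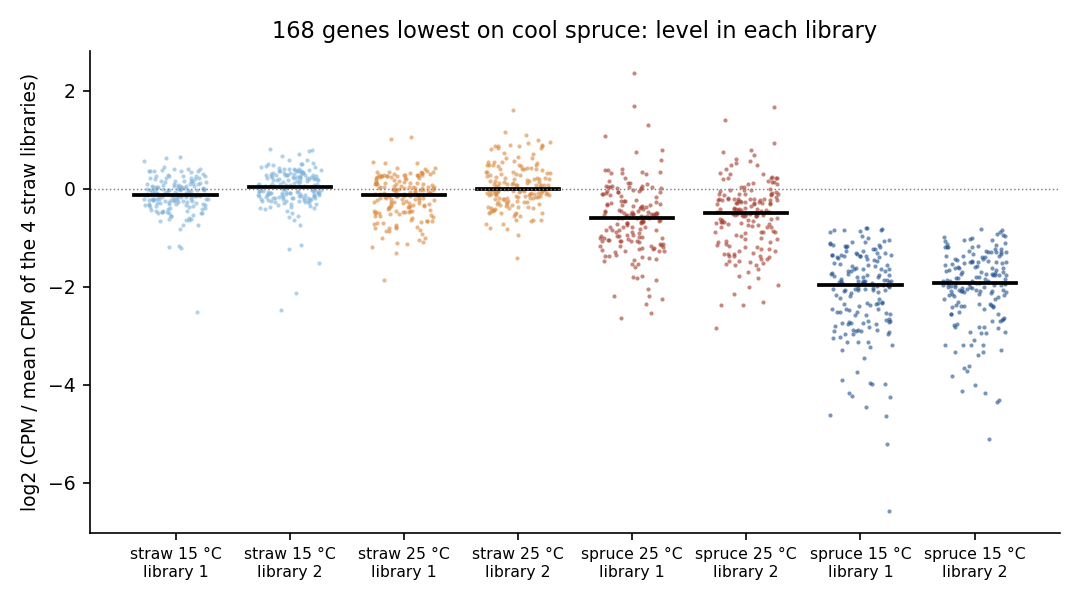
Each point is 1 of the 168 genes in 1 library, as log2 of its CPM over its mean CPM in the 4 straw libraries, and the black bars are medians over the genes. The cool spruce medians correspond to 25.4% and 26.4% of the straw mean, and the warm spruce medians, at 66.4% and 71.2%, lie between these and straw.

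The size of the drop varied widely within the set. The ratio of the lowest of the other 6 values to the higher cool spruce value had a median of 1.79 and reached 8.04. It was at least 2 in 54 genes and at least 3 in 14. Members were found at all levels of expression: 52, 42, 31 and 43 of them fell in 4 equal groups of the 8811 genes ordered by mean CPM, from the lowest group to the highest. The 2 members nearest the 1.5-fold limit were models 96 of scaffold 429 and 10 of scaffold 1641, both with a ratio of 1.51. The nearest gene outside it was model 6 of scaffold 836, with 27.2 and 26.6 CPM on cool spruce and a lowest value of 40.7 elsewhere. Next came model 7 of scaffold 818, with 3.83 and 3.55 CPM and a lowest value of 5.73. The set therefore has no gap at its edge. In the cool spruce libraries each member still had 8 counts or more, so none was absent there.

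The gene with the largest ratio was jgi|Trapub1|9285|scaffold_337.66. It had 6.1 and 5.33 CPM on cool spruce, 107 and 49.1 on warm spruce, 74.4 and 118 on cool straw and 82.8 and 106 on warm straw. One warm spruce value of this gene thus lay within the range of straw and the other below it. The second, jgi|Trapub1|535|scaffold_1045.45, had 13.8 and 38.3 CPM on cool spruce, 227 and 614 on warm spruce, 1393 and 1851 on cool straw and 1040.1 and 965.5 on warm straw. In contrast to the first, its warm spruce values lay below all 4 straw values. This gene was also one of the 2 most abundant members, with a mean of 1015 CPM over the other 6 libraries. The most abundant was jgi|Trapub1|864|scaffold_1085.1, with a mean of 1084 CPM. It had 258 and 261.5 CPM on cool spruce, 606 and 498 on warm spruce, 1123 and 1451 on cool straw and 1527 and 1298 on warm straw.

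As a description, the rule was also applied to 1 library of each group at a time. Its limits, and the choice of cool spruce, were set with all 8 libraries known, and the libraries of a group may be technical replicates, so the shares below are no independent support for the pattern. Applied to the first library of each group alone, with TMM scaling within those 4 libraries, the rule chose 378 of 8955 genes. In the second libraries, cool spruce was the lowest of the 4 in 336 of these 378 genes (88.9%), against 29.6% of the 8955. The 1.5-fold limit was met again in 216 of them (57.1%), against 5.53%. In the reverse direction, 483 of 9086 genes were chosen in the second libraries, and cool spruce was the lowest first library in 426 of them (88.2%), against 24.4% of the 9086. There the 1.5-fold limit was met again in 224 genes (46.4%), against 5.06%. Of the 168 genes, 149 were among the 378 and 137 among the 483. A gene that met the 1.5-fold limit again was by definition also lowest, so the share for lowest could not be the smaller.

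Warm spruce did not match straw in much of the set, although the genes were gathered as lowered on cool spruce only. In 64 of the 168 genes both warm spruce libraries lay below all 4 straw libraries (background 17.8% of 11622 tested genes). In 101 genes they overlapped the straw libraries. In 3 genes they lay above all of them (background 16%). In the 64 genes, the median gene had 50.6% of its straw mean on warm spruce and 22.2% on cool spruce. In the 101 genes it had 82.2% and 28.1%. The rule bounds how far warm spruce may lie below straw and sets no upper limit, so these counts are descriptions and not tests.

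The 3 genes above straw are named after their values were seen. They are model 39 of scaffold 1634, model 76 of scaffold 1380 and model 40 of scaffold 892. Model 39 of scaffold 1634 had 53.1 and 45.2 CPM on warm spruce, 18.3 to 40.5 on straw and 8.38 and 9.35 on cool spruce. Its libraries did not overlap between warm spruce and straw, and the log2 fold change between the 2 groups at 25 °C was 0.77 ± 0.34 (SE). Model 76 of scaffold 1380 had 210 and 160 CPM on warm spruce against 72.2 to 152 on straw. Model 40 of scaffold 892 had 19.8 and 17.7 against 13.0 to 16.9.

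The rule also chose on the libraries at 25 °C: it asked for warm spruce at 1.5 times the cool spruce level or more, and its bound took out 16 genes with low warm spruce values. The counts for spruce against straw at 25 °C are therefore descriptions, and no p is given for single genes. In a fit across all genes, these libraries gave 25 of the 168 genes with a call for lower expression on spruce (background 3.43%) and none was called higher (background 4.22%). A call is an adjusted p below 0.05 in edgeR's quasi-likelihood F test. At an unadjusted p below 0.05 there were 61 genes of the set (36.3%; background 22.8%), 2 of them higher. DESeq2 called 38, all lower (22.6%; background 4.82%). The median log2 fold change of the set was -0.46, against 0.022 over all tested genes, and 136 of the 168 values were below 0. The count of 25 became 12, all lower (7.14%), in a fit of the 4 libraries at 25 °C alone (background 2.02%). Without the first and second warm straw library, the median log2 fold change of the set was -0.47 and -0.39.

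The fold changes at 25 °C ran from -3.11 to 1.41 on the log2 scale. The gene with the largest fall was jgi|Trapub1|11106|scaffold_509.14, described with the straw libraries below. Next in size was jgi|Trapub1|8256|scaffold_209.9, with 18.4 and 11.2 CPM on warm spruce and 24.0 and 90.1 on warm straw. Its log2 fold change was -1.94 ± 0.52 (SE), and its warm straw libraries differed more from each other than its warm spruce libraries did. The highest positive value belonged to jgi|Trapub1|9154|scaffold_324.25, with 13.9 and 61.9 CPM on warm spruce and 13.9 and 14.7 on warm straw. Only the second warm spruce library was high (log2 fold change 1.41 ± 0.54, SE). In jgi|Trapub1|9106|scaffold_322.17, with 130 and 35.3 CPM on warm spruce and 15.7 and 50.3 on warm straw, the groups overlapped (log2 fold change 1.32 ± 0.62, SE). In the set as a whole the warm spruce libraries differed most from each other, by 1.43-fold in the median gene, against 1.19-fold for cool spruce and for cool straw and 1.29-fold for warm straw. Warm spruce also differed most over all 8811 genes at 5 CPM or more in the 6 libraries, by 1.31-fold in the median gene, against 1.17 to 1.19-fold in the other groups.

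The bound on warm spruce removed 16 of the 184 genes. In these genes both warm spruce values were at most 0.5 times the lowest straw value. The largest ratio among them belonged to model 31 of scaffold 1045, with 3.83 and 15.7 CPM on cool spruce, 42.9 and 51.6 on warm spruce and 303 to 811 on straw. Models 3, 4 and 5 of scaffold 462, which lie next to each other, were also among the 16. In model 5 the values were 33.6 and 50.6 CPM on cool spruce, 151 and 119 on warm spruce and 1334 to 2185 on straw. These genes are named because of where they lie and were chosen after their values were seen.

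Temperature on straw is a contrast without any spruce library, and the rule does not set its direction. Among the 168 genes, 1 was called, against 3 of all 11622 tested genes (background 0.0258%). The called gene, jgi|Trapub1|11106|scaffold_509.14, had 108 and 112 CPM on cool straw, 1255 and 1009 on warm straw, 136 and 125 on warm spruce, and 25.3 and 38.6 on cool spruce. It rose on warm straw by a log2 fold change of 3.36 ± 0.28 (SE, n = 2 per group; edgeR adjusted p = 0.00633). Between spruce and straw at 25 °C its log2 fold change was -3.11 ± 0.27 (SE). Its warm spruce values were thus near those of cool straw, and warm straw stood apart from both. Without the first or second cool straw library or the first warm straw library, the straw call was lost (edgeR adjusted p = 0.116, 0.134 and 0.0864) while the log2 fold change stayed at 3.33, 3.38 and 3.19. DESeq2 called 7 of the 168 genes on straw (4.17%; background 1.28%), 4 of them higher at 25 °C.

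The set spread more widely than other genes between the straw temperatures, in both directions. The interquartile range of its log2 fold changes ran from -0.36 to 0.34, against -0.14 to 0.16 for all 8811 genes at 5 CPM or more in the 6 libraries. The 2 warm straw libraries also differed more from each other in the set, by 1.29-fold in the median gene against 1.19-fold over the 8811. For cool straw these values were 1.19-fold and 1.17-fold. The part of this difference between libraries in the wider range was not tested. The median was 0.055, against 0.014 over all tested genes, and 94 of the 168 values were above 0. At an unadjusted p below 0.05, 32 of the 168 genes differed (19.0%), against 5.84% of the 8811; 21 of the 32 were lower and 11 higher at 25 °C. This count fell to 19 and 17 without the first and second cool straw library, where the count over all tested genes fell from 758 to 616 and 387. Both warm straw libraries lay above both cool straw libraries in 33 genes (19.6%) and below them in 39 (23.2%). The background was 16.1% and 17.2% of all tested genes, and 15.5% and 15.8% of the 8811. After adjustment over all tested genes the difference at each of these genes, other than the called one, did not pass the test.

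**Figure D2:**
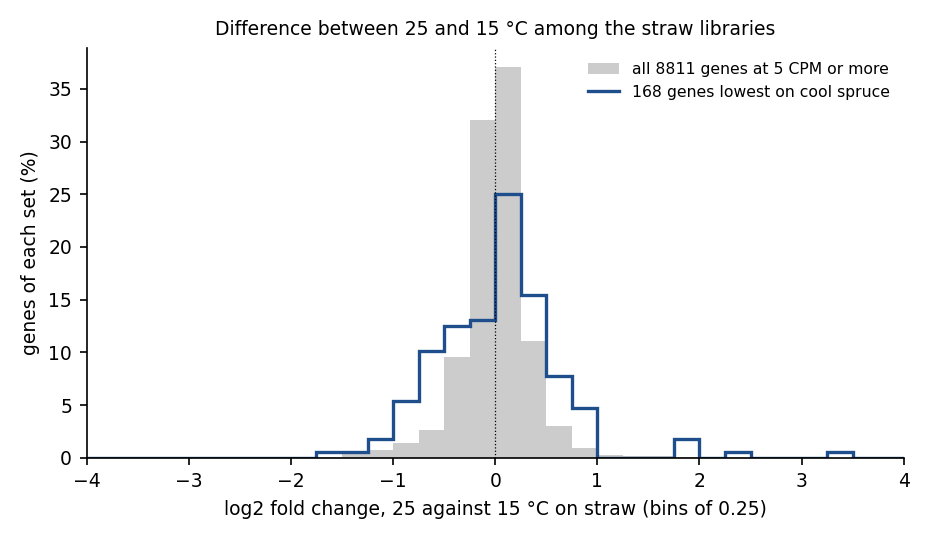
The histogram shows the log2 fold change between 25 and 15 °C on straw, in bins of 0.25, as a percentage of the 168 genes (line) and of all 8811 genes at 5 CPM or more in the 6 libraries (filled). The interquartile range of the set is -0.36 to 0.34, and that of the 8811 genes is -0.14 to 0.16.

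The lowest value on straw belonged to jgi|Trapub1|3755|scaffold_1478.18, named after its values were seen. It had 140 and 134 CPM on cool straw, 51.9 and 33.7 on warm straw, 32.5 and 37.2 on warm spruce, and 17.2 and 18.0 on cool spruce. Warm straw and warm spruce overlapped, cool straw stood above both and cool spruce below. The log2 fold change on straw was -1.68 ± 0.24 (SE), with an edgeR adjusted p of 0.0536. It was called with DESeq2, without a filter on low counts and with a replicate block. It was not called with RLE scaling (size factors as in DESeq2), totals scaling or a fit of the 4 straw libraries alone. The edgeR adjusted p was 0.0636, 0.104 and 0.0674 in these. With single libraries left out, its log2 fold change ran from -2.03 to -1.40.

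Genes of the set often lay next to each other. The identifier of a gene model gives its scaffold and its number along it, and neither was used by the rule. In 32 of the 168 genes (19.0%), the next model on either side was also in the set. The same was true of 195 of 8643 genes outside the set at 5 CPM or more in the 6 libraries (background 2.26%). The 32 genes formed 14 runs: 12 pairs, 1 run of 3 and 1 run of 5. The 168 genes lay on 116 scaffolds, and scaffold 1045 held most, 7 of its 32 genes at that level. The annotation version, and whether strand was used in counting, are not stated in the labels. Whether neighbouring models share reads, overlap or are parts of 1 gene was therefore not tested.

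The run of 5 covered models 41 to 45 of scaffold 1045, and model 45 is gene 535 described above. Model 41 had 41.2 and 54.99 CPM on cool spruce, 106 and 109 on warm spruce, 200 and 195 on cool straw and 119 and 104 on warm straw. Model 42 had 6.46 and 11.5 on cool spruce, 19.1 and 47.3 on warm spruce and 67.1 to 112 on straw. Model 43 had 39.9 and 73.9 on cool spruce, 127 and 182 on warm spruce and 188 to 354 on straw. In these 3 models cool spruce was lowest, and in models 42 and 43 warm spruce was also below all of straw. Model 44 had 10.1 and 11.2 CPM on cool spruce, 40.3 and 60.2 on warm spruce and 49.95 to 84.4 on straw, so that warm spruce and straw overlapped. On cool straw the mean CPM of the most abundant model of the run was 22.2 times that of the least abundant. Per-length levels could not be computed, so this ratio is not a comparison of transcript numbers.

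The models on either side of the run came close to the limit. Model 40 had a ratio of 1.48, with 22.6 and 32.5 CPM on cool spruce, 48.2 and 72.6 on warm spruce, 179 and 169 on cool straw and 52.5 and 48.9 on warm straw. Model 46 had a ratio of 1.49, with 13.6 and 14.2 CPM on cool spruce and 21.1 to 29.1 in the other 6 libraries. At the next models out, cool spruce was not lowest. Model 39 had 84.4 and 84.6 CPM on cool spruce and 63.9 to 80.3 elsewhere, so that cool spruce was highest there. In model 47 warm straw was lowest, with 127 and 107 CPM against 139 and 266 on cool spruce. Farther out, cool spruce again had the lowest mean in models 35 to 37 and in model 48. In models 35 and 36 its libraries overlapped those of other groups, and model 35 stayed below 5 CPM in every library. Model 37 had 23.8 and 30.3 CPM on cool spruce, 54.6 and 28.3 on warm spruce and 58.5 to 117 on straw, so that the spruce groups overlapped. Model 48 had 24.4 and 36.6 CPM on cool spruce, 33.9 and 42.8 on warm spruce and 83.4 to 117 on straw, and here too the spruce groups overlapped while straw stood above both.

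The run of 3 covered models 86 to 88 of scaffold 1555. Model 86 had 145 and 116 CPM on cool spruce, 312 and 426 on warm spruce and 846 to 1313 on straw. Model 87 had 51.3 and 50.3 on cool spruce, 111 and 173 on warm spruce and 328 to 443 on straw. Model 88 had 28.1 and 24.3 on cool spruce, 55.9 and 121 on warm spruce and 72.6 to 190 on straw. Model 89, with 186 and 159 CPM on cool spruce, 410 and 397 on warm spruce and 831 to 992 on straw, met the 1.5-fold limit and was kept out by the bound on warm spruce. On the other side, model 85 had 109 and 120 CPM on cool spruce and overlapped the other libraries.

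**Figure D3:**
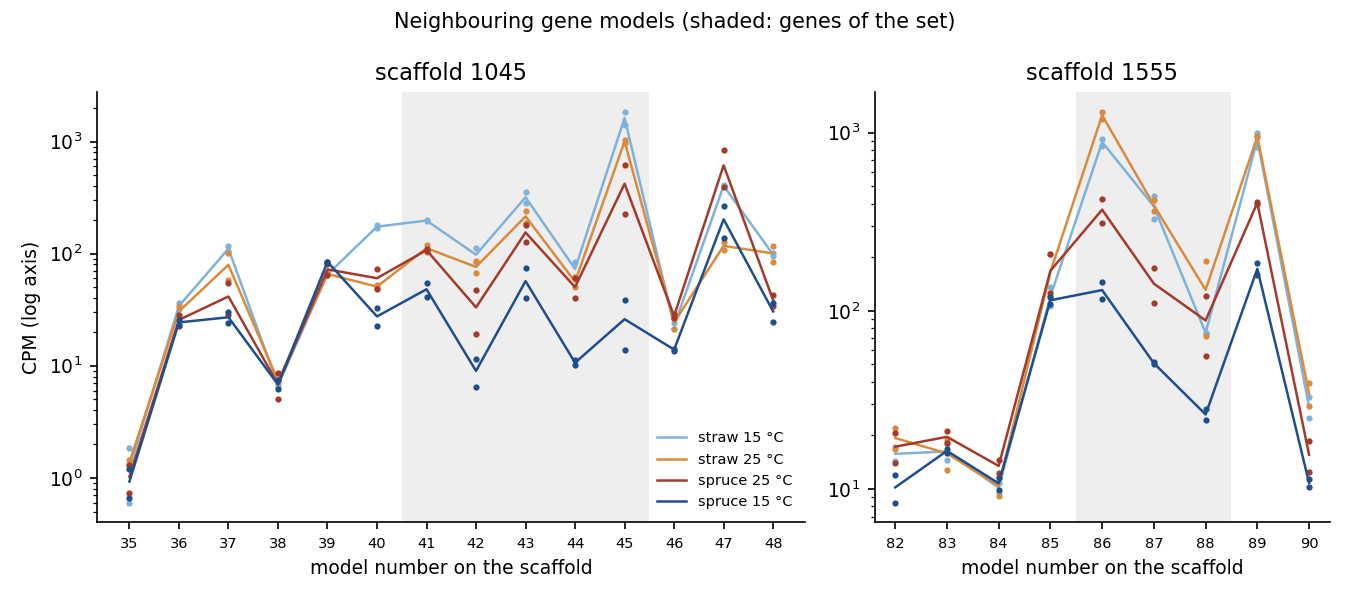
CPM on a log axis is plotted against the model number on scaffolds 1045 (models 35 to 48) and 1555 (models 82 to 90), with points for libraries, lines for group means and shading for genes of the set. On scaffold 1045 the cool spruce line is the lowest of the 4 in models 35 to 37, 40 to 46 and 48, and on scaffold 1555 in models 82 and 85 to 90.

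Genes next to the set were also shifted in the same direction, as a description. In the 195 neighbours outside the set, the mean of the other 6 libraries was above the cool spruce mean by 0.15 on the log2 scale in the median gene, against -0.011 over the 8643 genes. Both cool spruce libraries lay below all other 6 in 48 of the 195 (24.6%), against 9.75% of the 8643.

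Fewer genes stood below all other libraries in each of the other groups. Each group was put in the place of cool spruce, with no bound on warm spruce. Of the genes at 5 CPM or more in the other 6 libraries, 11 (0.127%) were lowered by at least 1.5-fold on cool straw only. The count was 76 (0.874%) on warm straw only and 12 (0.138%) on warm spruce only, against 184 (2.09%) on cool spruce. In the opposite direction, 110 genes were at least 1.5-fold above all other libraries on cool spruce. There were 57 on cool straw, 32 on warm straw and 33 on warm spruce. Both libraries of a group had to meet the condition, which is harder where they differ more. Over the 8811 genes, warm spruce libraries differed by 1.31-fold in the median gene, against 1.17 to 1.19-fold in the other groups. The part of this spread in the counts was not tested. When single libraries were left out, lowered genes numbered 10 to 56 on cool straw, 80 to 144 on warm straw, 12 to 110 on warm spruce and 189 to 342 on cool spruce, and cool spruce had the most in all 8 of these settings. The raised genes numbered 60 to 151, 35 to 146, 34 to 208 and 112 to 255 in the same order, and cool spruce had the most in 4 of the 8. Leaving out a library removes a value that the condition had to meet, for its own group and for the others. Apart from rescaling, these counts could therefore only stay or rise, and the ranges do not measure stability. With scaling to library totals alone, 302 genes were lowered and 57 raised on cool spruce, and cool straw then had 63 raised genes. Over all tested genes, that scaling put the median log2 fold change of spruce against straw at -0.34 at 15 °C and -0.20 at 25 °C.

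**Figure D4:**
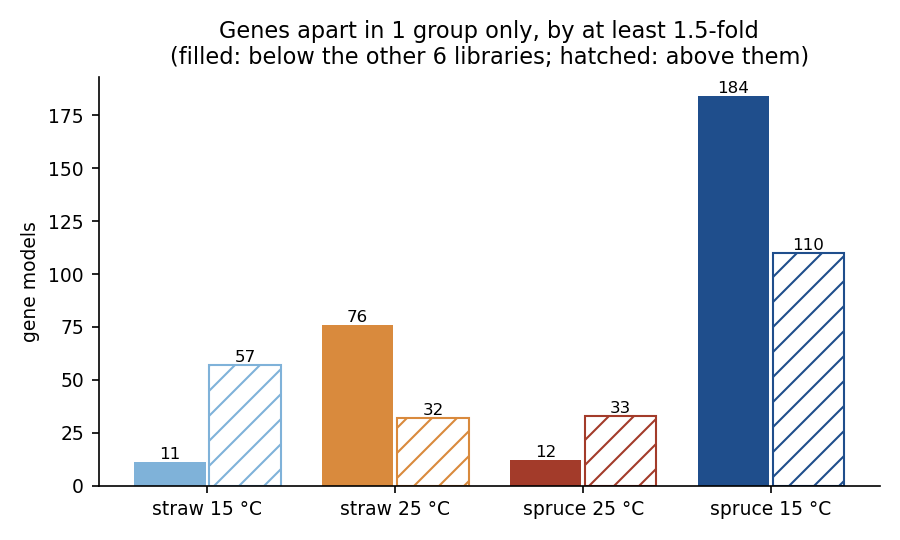
Bars give the number of gene models whose 2 libraries in a group lie at least 1.5-fold below (filled) or above (hatched) all other 6 libraries, with 5 CPM or more in the higher libraries. Cool spruce has 184 lowered and 110 raised genes, and the other groups have 11 to 76 lowered and 32 to 57 raised. With single libraries left out, cool spruce has 189 to 342 lowered genes and the other groups 10 to 144. Each omission loosens the condition, so these ranges do not measure stability.

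The contrasts that contain cool spruce were used by the rule, and nothing is read from their counts. In them, 152 of the 168 genes had a call for lower expression on spruce at 15 °C (background 7.63%). On spruce, 28 were called higher at 25 than at 15 °C (background 0.336%), and in the temperature by substrate interaction 10 were called with a higher effect on spruce (background 0.198%). The 10 became 0 with RLE scaling (the size factors of DESeq2) and without any one of the straw or cool spruce libraries. These 3 contrasts share the cool spruce libraries. In 15 of the 168 genes none of the 5 contrasts fitted gave a call. The count of 152 fell without the first or second cool spruce library, and so did the lower calls over all tested genes.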

How the data were processed

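RNA from mycelium was sequenced as messenger RNA. The authors deposited unnormalised counts per gene model for each library. Tools named in the submitters' processing notes are STAR 2.7.10a and Trimmomatic 0.36. The build and the strand setting are not stated there. The files of the second fungus of the series, Phlebia centrifuga, have other gene models and were not used.

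CPM came from edgeR 4.0.16 (R 4.3.3) with TMM scaling over 8 libraries and no prior count. Tests used edgeR's quasi-likelihood F test on 11622 genes kept by filterByExpr, with 1 mean per group and 4 residual degrees of freedom. Adjustment was by Benjamini-Hochberg over these genes. All 168 genes of the set were tested. A standard error is the log2 fold change divided by the square root of F. Libraries of each group differed beyond sampling noise (chi-square per degree of freedom 30.8 to 92.2). The fits and the rule were run on simulated data as a check of the code only, and no result rests on it. DESeq2 1.42.0, other scalings, no filter, a replicate block, fits of 4 libraries and each library left out were tried.

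The members and lists were chosen with earlier results of these data known. Named genes are those with the 2 largest ratios and the 2 highest levels, those nearest the limit, those called on straw, the 2 extremes in each direction at 25 °C and 4 models of the longest run. Named after their values were seen are the fifth model of that run, the run of 3 and the models beside both runs. So are gene 3755, the 3 genes above straw, and models of scaffolds 1045 and 462 removed by the bound on warm spruce. The same holds for the pair on scaffold 719 and model 11 of scaffold 171. Lists by product were not tested, as no names were available here.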

Additional observations from a re-analysis of the deposited data

Results flagged for a closer look

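The interaction test in edgeR compares the temperature effect between spruce and straw. In it, 10 of the 168 genes had an adjusted p below 0.05, each with a higher effect on spruce (background 0.198%). The count was 0 with RLE scaling. It fell without any one of the 4 straw or 2 cool spruce libraries, and rose without either warm spruce library. Calls over all tested genes moved the same way. The choice of members uses the same libraries, so these counts are given as values only. Among the 10 are both models of the pair on scaffold 719 (models 3 and 4) and models 41 and 44 of the run on scaffold 1045. Model 11 of scaffold 171, which lies in a pair, is also among them. The rule chose on the cool spruce values that enter this test, and no link between these calls and the runs was tested.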

How the results depend on the processing

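With libraries scaled by their totals alone, the rule found 273 genes, 156 of them in the set, and 58 had a member beside them; a 2-fold limit gave 54 and 10. With totals scaling, genes chosen in the second libraries were lowest on cool spruce among the first libraries in 91.4% of cases. The share over all such genes was 45.7%, and as above this is no independent support for the pattern. With the 2-fold limit, 3, 25 and 4 genes were lowered on cool straw, warm straw and warm spruce only. On straw, DESeq2 called 7 genes of the set (background 1.28%). The count was 2 each without a filter (background 0.143%) and with a replicate block (background 0.189%). At 25 °C between substrates, totals scaling and DESeq2 called 38 each, all lower (background 5.08% and 4.82%). The fit of 4 libraries alone called 12 (background 2.02%). Totals scaling moved the median to -0.68. Between temperatures on spruce, all calls in the set were higher at 25 °C. They numbered 52 with totals scaling (background 0.62%), 133 with DESeq2 (background 2.54%) and 55 with the replicate block (background 0.74%). With the 4 libraries alone, 0 genes were called in the set and 0 over all tested genes. There 168 had an unadjusted p below 0.05 in edgeR, as did 1141 of all 11327 tested genes. In the interaction, edgeR called 0 of the set with RLE scaling. There 127 had an unadjusted p below 0.05, as did 926 of all 11622 tested genes. DESeq2 called 67 (background 1.95%, either direction), and the replicate block gave 23, all higher (background 0.439%).

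When single libraries were left out, the rule found 171 to 289 genes, of which 33 to 58 had a member beside them. The count was 249 and 272 without the first and second cool spruce library, and 289 and 256 without the warm spruce libraries. Genes lowered on cool straw only numbered 10 to 56, on warm straw only 80 to 144 and on warm spruce only 12 to 110, in an alternative added after seeing the data. Calls in the set ranged from 0 to 6 on straw, 10 to 31 at 25 °C between substrates, 0 to 87 on spruce, 69 to 163 at 15 °C between substrates and 0 to 45 in the interaction. The median on straw lay between -0.091 and 0.12, and at 25 °C between -0.58 and -0.39. For gene 9154, the fold change at 25 °C was -0.045 without the second warm spruce library and 2.12 without the first. The cause of these changes was not tested. Leaving out a library leaves 1 in its group, assumed to vary like the others. It also removes a value that the 1.5-fold limit had to meet, so higher counts under the rule were favoured in advance.

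Differences between libraries numbered 1 and 2 correlated across 8811 genes at 0.44 to 0.58 among WS-15c, SP-15c and SP-25c, and at -0.18 to -0.30 between each of these and WS-25c. As not every pair was above 0.1 and the labels tie no number to a shared culture or day, the numbers were not taken to pair the samples. Whether the 3 positive groups share a set, with the numbers of WS-25c the other way round, was not tested; the replicate block is given only as above. With 2 libraries per group, the spread behind each test rests on few values.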
